A study of Mus musculus with 2 samples.

Results

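A pair of annotated long non-coding RNAs (lncRNAs) of mouse liver that lie across from protein quality control genes are described here, 1810014B01Rik, across from the chaperone gene Hsp90b1, and Gm26745, across from the proteasome gene Psmd9. They are 2 of the 614 known lncRNAs and of the 886 lncRNAs listed in all, and were chosen by their position and with their levels in the high fat and normal diet libraries already known, so their levels and ratios are given as a description without a test. The libraries came from C57BL/6 wildtype mice at postnatal week 27, 1 after 23 weeks of a high fat diet (60% fat) and 1 on normal diet. The labels call the source hepatocytes, while the protocol describes RNA of the removed, frozen liver, and whether animals were pooled is not stated there. A single library stands for each diet, so the spread between animals is unknown, and every interval below is an exact 95% interval for counting error only.

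Hsp90b1 encodes endoplasmin (GRP94), a chaperone of the endoplasmic reticulum that folds secreted and membrane proteins and is induced when unfolded proteins collect there, a load that is high in the secreting liver. Psmd9 encodes a chaperone that helps assemble the regulatory particle of the proteasome, the complex that degrades ubiquitin-tagged proteins. RNAs transcribed across from a coding gene can overlap its exons, its introns or neither. The coding genes themselves are not listed in the lncRNA table, so no level of Hsp90b1 or Psmd9 was analysed here.

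1810014B01Rik (ENSMUSG00000097412) lies on the plus strand of chromosome 10, chr10:86685525-86694806 (GRCm38, GENCODE M21), and has 6 annotated transcripts with 2652 exon bases in all. GENCODE gives it the type transcribed unprocessed pseudogene, a type shared by 2 of the 606 known lncRNAs whose identifiers were found in that release, the other being Gpr137b-ps. Its relation to Hsp90b1, which occupies chr10:86690209-86705509 on the minus strand, is tail to tail. Of the transcripts, 2 run into the 3′ part of Hsp90b1 and lie across from 415 and 112 bases of its coding exons, which together make up 415 bases, 15.6% of the exon bases. The other 4 transcripts end 885 to 2210 bases short of the coding transcripts of Hsp90b1, with whose exons they share no base. The map of exons shows both kinds of transcript.

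The label of this lncRNA as a counterpart of Hsp90b1 therefore covers a minor share of its sequence. A larger share, 808 exon bases (30.5%), is near-identical (at least 90% over at least 50 bases) to 1190007I07Rik, a coding gene on the minus strand of the same chromosome at chr10:82619851-82623228, 4.06 Mb away. The human counterpart of 1190007I07Rik encodes brawnin (UQCC6), a small mitochondrial protein of respiratory complex III assembly. The longest match was 621 bases at 96.0% identity on the same strand. Shorter matches were found to the pseudogene Gm19624 (218 bases, 96.3%) and to a transcript of Pwp1 (210 bases, 95.2%). The remaining 1441 bases (54.3%) were neither across from coding exons of Hsp90b1 nor near-identical to 1190007I07Rik. Matches of this kind to any gene other than Hsp90b1 covered 958 exon bases (36.1%) and involved 291 genes.

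The transcript of 1810014B01Rik that is annotated as the pseudogene, spliced from chr10:86685889-86688629 (plus strand), is printed below. Beside it is the coding sequence of 1190007I07Rik, spliced from chr10:82620122-82622815 (minus strand). The 2 genes are nearly the same over these stretches, which are shorter than the longest match of 621 bases. Both run 5′ to 3′ over 204 bases, and capitals mark the 4 bases that differ (98.0% identity).
1810014B01Rik: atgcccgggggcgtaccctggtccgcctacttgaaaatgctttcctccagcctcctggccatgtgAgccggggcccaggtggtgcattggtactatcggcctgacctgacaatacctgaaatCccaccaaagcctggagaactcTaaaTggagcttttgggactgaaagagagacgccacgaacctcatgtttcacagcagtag
1190007I07Rik: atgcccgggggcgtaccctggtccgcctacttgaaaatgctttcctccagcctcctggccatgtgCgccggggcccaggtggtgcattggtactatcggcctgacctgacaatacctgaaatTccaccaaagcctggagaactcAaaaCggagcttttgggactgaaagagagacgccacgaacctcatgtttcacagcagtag

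Counted from 1 at the first base of the start codon, with the base of 1190007I07Rik first, the differences are C66A, T123C, A145T and C149T. C66A turns codon 22 into a stop codon in 1810014B01Rik, and A145T does the same to codon 49. The reading frame of 1190007I07Rik holds 67 codons before its stop.

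The overlap with Hsp90b1 is shown by the fourth exon of its longest-reaching transcript, chr10:86692218-86692305 (plus strand, 88 bases). Capitals mark the 78 bases that lie across from a coding exon of Hsp90b1, whose transcript carries their exact reverse complement.
1810014B01Rik exon: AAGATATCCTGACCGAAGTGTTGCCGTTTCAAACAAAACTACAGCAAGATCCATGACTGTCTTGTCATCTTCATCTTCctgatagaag

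Gm26745 (ENSMUSG00000097213) is annotated as a lincRNA with a single transcript on the minus strand of chromosome 5, chr5:123047373-123230871, a span of 183499 bases. Only 1874 of these are exonic, in a first exon of 1849 bases and a second exon of 25 bases that are separated by an intron of 181625 bases. The first exon lies within the first intron of the main coding transcript of Psmd9, 578 bases past its first exon and 3722 bases before its second. It shares 0 bases with exons of protein-coding transcripts of Psmd9. All of its 1849 bases lie across from a single-exon Psmd9 transcript of 1925 bases, whose type TEC marks models still to be tested by experiment, and 9 of them also across from a retained-intron transcript. The name of a Psmd9 counterpart thus rests on exons of transcripts of that gene that are not annotated as protein-coding.

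The span of Gm26745 takes in 5 protein-coding genes, among them Hpd, a tyrosine catabolism enzyme of liver, and Setd1b, a histone methyltransferase, but it shares exon bases with Psmd9 alone. Near-identical stretches in 330 other genes covered 312 exon bases (16.6%). The most, 167 bases, matched Pecam1, with a longest match of 114 bases at 90.4% identity on the opposite strand. Gm43412 (150 bases) and AC163635.1 (145 bases) followed closely. GC content over exons was 44.2% for 1810014B01Rik and 42.8% for Gm26745.

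**Figure D1:**
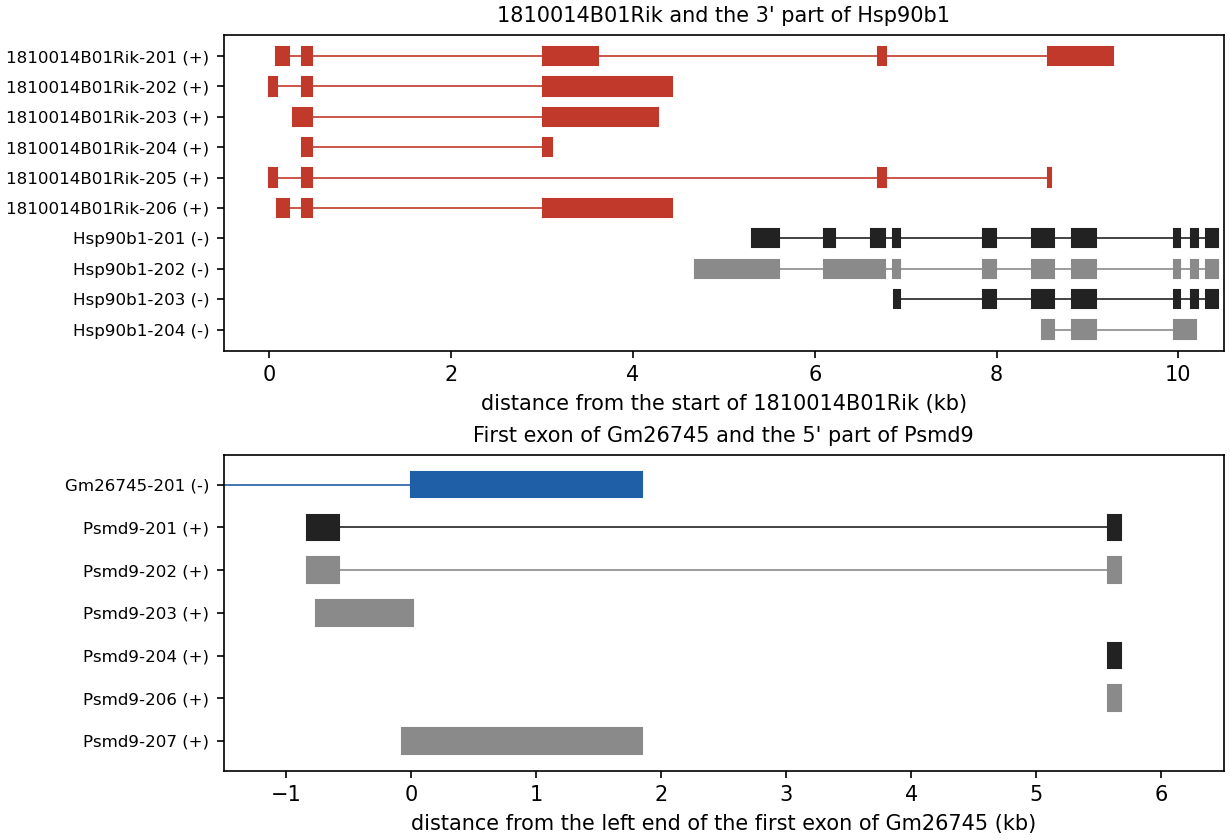
Exons (boxes) and introns (lines) of annotated transcripts, with the strand in parentheses and distance in kb on the horizontal axis; lncRNAs are in colour, protein-coding transcripts in black, other transcripts of the coding genes in grey. In the upper panel 2 of the 6 transcripts of 1810014B01Rik reach the exons of Hsp90b1. In the lower panel the first exon of Gm26745 sits between the first and second exon of the upper coding transcript of Psmd9. The 1925-base Psmd9 transcript of type TEC lies across from all of that first exon of Gm26745. The 25-base second exon of Gm26745 is outside the panel to the left.

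1810014B01Rik was more abundant in the high fat diet library and Gm26745 less abundant. The deposited values are in CPM, read counts scaled to the same total for each library within the table of known lncRNAs, from which whole numbers of read pairs were recovered, 96769 pairs on the high fat diet and 121097 in the normal diet library. The median known lncRNA had 12 and 15 pairs.

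1810014B01Rik had 99722 CPM in the high fat diet library (95% Clopper-Pearson interval 97841 to 101627, 9650 pairs) and 63222 CPM in the normal diet library (61858 to 64607, 7656 pairs). It took 9.97% and 6.32% of the pairs behind the scaling, of which the table lists nearly all (96630 and 120906). The intervals of the 2 libraries did not overlap. They hold counting error only and are narrow at this many pairs. The share of all known lncRNAs whose intervals are likewise separate is not given here, so this does not set 1810014B01Rik apart. Per kb of exon, its level was 37603 and 23839 CPM, 434 and 292 times the median of the 606 lncRNAs with an exon length, and the second and the fourth highest.

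The ratio of 1810014B01Rik was 1.58-fold toward the high fat diet library (1.53 to 1.63), a log2 ratio of 0.66 (0.61 to 0.70). The call used here asks for a 2-fold difference in CPM and for 20 reads (10 pairs) in the library with more, so 1810014B01Rik was not called, though it would be at 1.5-fold, and the authors' deposited table does not mark it as significant either. Of 364 known lncRNAs with that many reads, 28 (7.69%) were called higher and 30 (8.24%) lower. Among the 364, 53 had a higher ratio than 1810014B01Rik and 310 a lower one. Among the 35 lncRNAs with at least 1000 pairs over both libraries, whose median log2 ratio was -0.05, 2 had a higher ratio. These were Gm9968, with 836 pairs in the high fat and 330 in the normal diet library, and Gm28592, with 1356 and 351, both named after their values were seen. The 3 lncRNAs closest to it in log2 CPM over the 2 libraries, of 305 compared, were Gm26905, Gm30097 and Gm26809, at distances of 0.62 to 0.65, and their log2 ratios were -0.18, 0.17 and -0.21. Each of these counting intervals lay below that of 1810014B01Rik, as did that of Gm26697, the other lncRNA whose pairs over both libraries were within 2 times its own (-0.28), also named after its values were seen.

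Gm26745 had 517 CPM in the high fat diet library (95% Clopper-Pearson interval 384 to 681, 50 pairs) and 1305 CPM in the normal diet library (1109 to 1525, 158 pairs). These intervals did not overlap either, again without the share of all known lncRNAs for which this holds. Gm26745 held 0.0517% and 0.130% of the pairs. Per kb of exon its level was 276 and 696 CPM, 3.18 and 8.53 times the median, and ranked 189 and 111 of 606. With far fewer pairs than 1810014B01Rik, its ratio is less precise.

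The ratio of Gm26745 was 2.53-fold toward the normal diet library (1.83 to 3.54), a log2 ratio of -1.34 (-1.83 to -0.87). It was called lower, as it is in the authors' deposited table, and its interval includes values under 2-fold. Of the 2 lncRNAs, 1 was thus called lower and 0 higher, beside 8.24% called lower and 7.69% called higher of the 364. The ratio of each was part of what chose the pair. Of the 364 lncRNAs with enough reads, 18 had a lower ratio. Among the 118 lncRNAs whose pairs over both libraries were within 2 times its own, 3 had a lower ratio (Gm15758, Gm26608 and 9530052E02Rik, the last 2 named after their values were seen), and the median log2 ratio was -0.02.

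**Figure D2:**
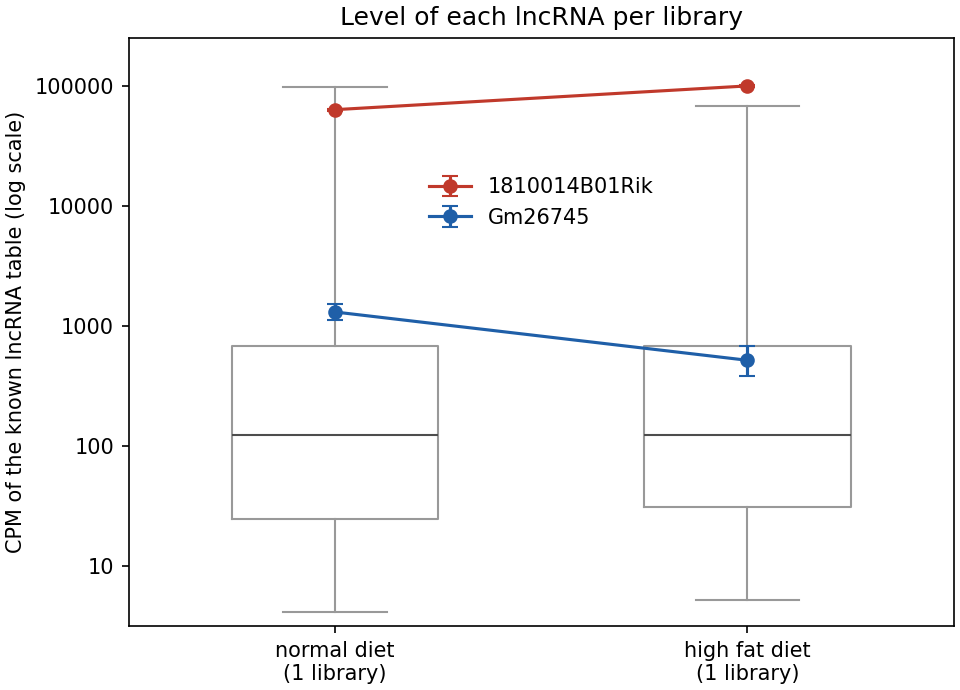
CPM on a log scale, not adjusted for exon length, by library, for 1810014B01Rik and Gm26745 (points with exact 95% counting intervals), over a box plot of all 614 known lncRNAs (median, quartiles, whiskers to the farthest value within 1.5 box heights on the log scale). 1810014B01Rik moves from 63222 to 99722 CPM near the top of the table, and Gm26745 from 1305 CPM, above the upper quartile, to 517 CPM, inside the box.

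**Figure D3:**
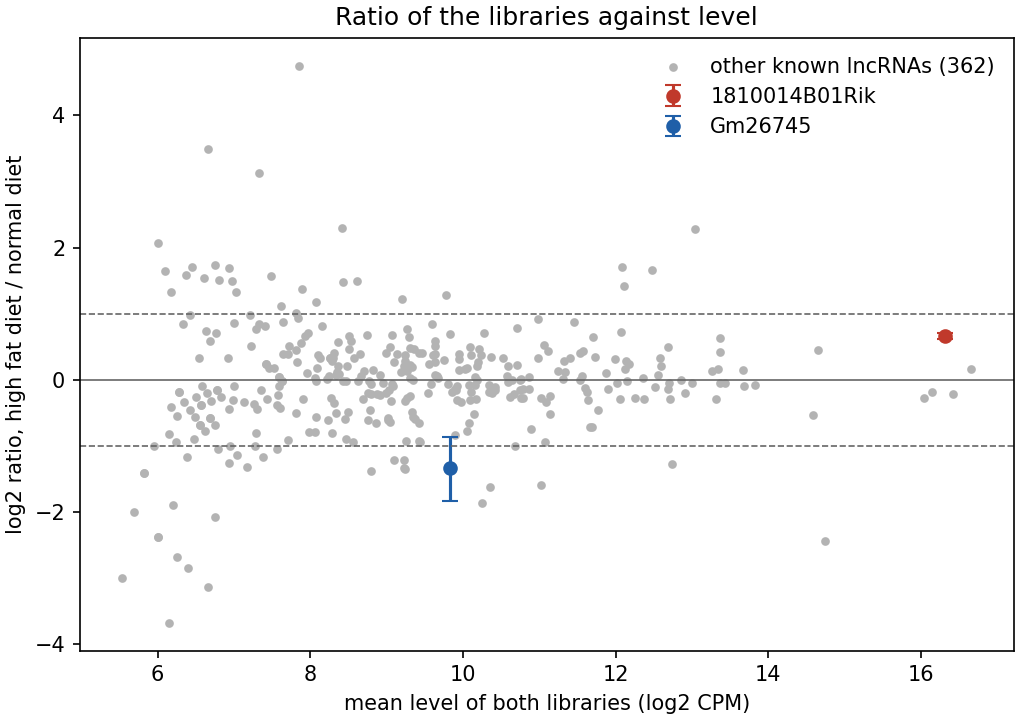
Log2 ratio of the high fat diet over the normal diet library (vertical axis) against the mean level of both libraries in log2 CPM (horizontal axis) for the 364 known lncRNAs that had 20 reads or more in either library; bars are 95% counting intervals and dashed lines mark 2-fold. 1810014B01Rik, at 0.66, lies inside the dashed lines at the far right, where few lncRNAs are, and Gm26745, at -1.34, lies below the lower line.

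The nearest lncRNAs to Gm26745 by level and ratio were Gm43660, E230013L22Rik and Gm15758, at distances of 0.41 to 0.55 in log2 CPM. Their log2 ratios were -0.84, -0.93 and -1.86, all toward the normal diet library, as the measure of likeness uses both levels. Position gave a separate view, because 4 other listed lncRNAs lie inside the span of Gm26745, all of them in its intron. 4932422M17Rik had 428 pairs with the high fat diet and 648 with the normal diet, a log2 ratio of -0.27 (-0.45 to -0.10). Gm38102 had 275 and 425 pairs (-0.30, -0.53 to -0.08).

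Gm43409 had 58 and 60 pairs (0.27, -0.27 to 0.82) and AI480526 had 25 and 29 (0.11, -0.72 to 0.93). None of these 4 counting intervals reached the upper bound of -0.87 for Gm26745, and the 2 that were lower in the high fat diet library differed by less than Gm26745 did. They are not 4 independent comparisons, since AI480526 shares 3147 exon bases with Gm38102 and 4932422M17Rik. Outside the span, the next listed lncRNAs were Gm16063, 3413 kb away with 2 and 3 pairs, and Gm34086, 801 kb away with 7 and 2 pairs, both below the minimum.

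No listed lncRNA with a position in the annotation lies within 1684 kb of 1810014B01Rik. The next ones were Gm17249, with 27 pairs on the high fat diet and 41 in the normal diet library (log2 ratio -0.28, -1.04 to 0.46), and Gm26546, with 35 and 33 (0.41, -0.32 to 1.14). Both intervals included 0, and that of Gm26546 also included the ratio of 1810014B01Rik.

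**Figure D4:**
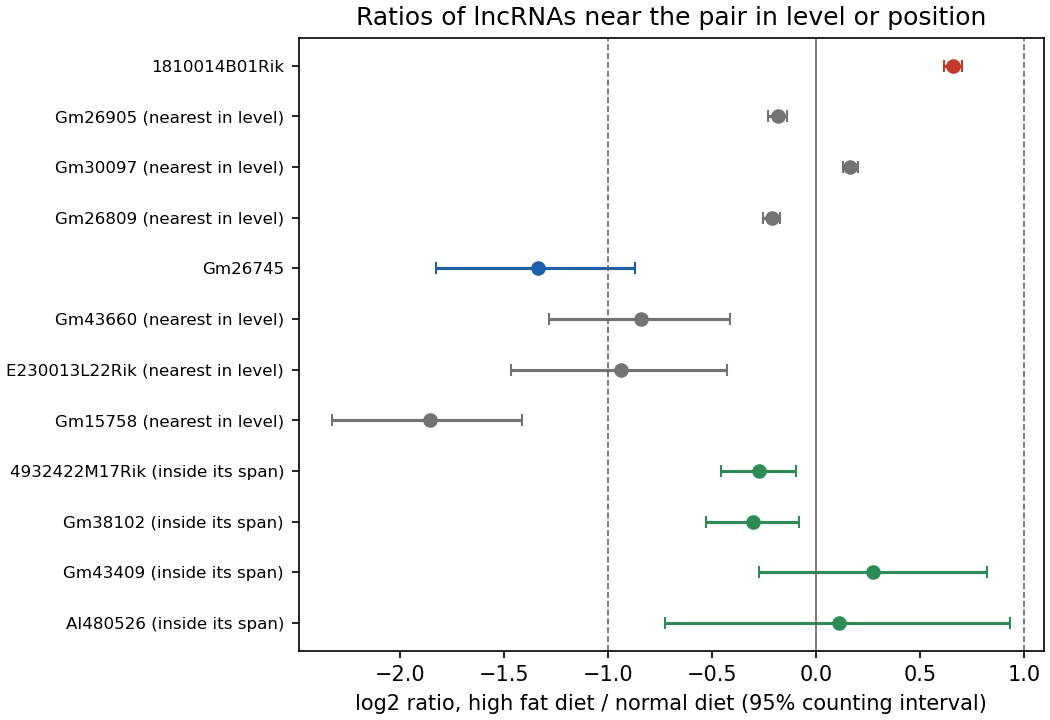
Log2 ratio of the high fat diet over the normal diet library with its exact 95% counting interval, for the pair (red and blue), the 3 lncRNAs nearest to each in level (grey) and the 4 listed lncRNAs inside the span of Gm26745 (green); dashed lines mark 2-fold. The intervals of the 4 green lncRNAs all lie to the right of that of Gm26745, and the 3 grey ones under 1810014B01Rik lie to its left.

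Whether other protein quality control genes have a lncRNA in the table was asked with 4 lists of coding genes, of which 151 of 157 names were found in the annotation. They cover chaperones of the endoplasmic reticulum with the unfolded protein response (32 of 34), cytosolic and mitochondrial chaperones (46 of 47), the proteasome (52 of 54) and ubiquitin with delivery to the proteasome (21 of 22). A lncRNA was taken when its exons overlap those of a listed gene or when it starts within 2000 bases of such a gene on the opposite strand. Beside the pair, 1 lncRNA met this, Gm6297, which starts 248 bases from the start of Dnaja1, a cytosolic partner of the Hsp70 chaperones. Gm6297 shares 249 bases with exons of Dnaja1 transcripts that are not protein-coding and 0 with its coding transcripts. It had 6 pairs on the high fat diet and 9 in the normal diet library, below the minimum, with a log2 ratio of -0.26 (-2.03 to 1.39). No lncRNA was found at the other genes of these lists, including Hspa5, the main Hsp70 chaperone of the endoplasmic reticulum, and Xbp1, a transcription factor of the unfolded protein response. The 8 known lncRNAs not found in the annotation and the 272 numbered lncRNAs have no position and could not be searched.

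The pair falls into different classes of exon overlap with coding genes. The 207 known lncRNAs whose exons share at least 50 bases with exons of protein-coding transcripts, on either strand, had a median of 284 CPM per kb in the high fat diet library and 344 in the normal diet library, against 40.4 and 42.7 for the 372 with no exon overlap with a coding gene. 1810014B01Rik belongs to the first class, where it had the second highest level per kb in the high fat diet library and the third highest in the normal diet library. Gm26745 belongs to 9 lncRNAs that overlap only other transcripts of coding genes, with a median of 90.7 and 118 CPM per kb, and ranked the third and the second among them. How the counting treated strand is unknown here, so reads of 1810014B01Rik and Hsp90b1 over their 415 shared bases, and reads of Gm26745 and the intron of Psmd9, cannot be told apart. The part of such reads, and of reads from 1190007I07Rik, in the levels and ratios was not tested.

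Markers among lncRNA genes gave little information on other liver cells. Of 15 names taken as markers of cells other than hepatocytes, 12 are annotated lncRNA genes that could be in such a table, since Ptprcap codes for a protein, Trbc1 is a T cell receptor segment and 1 name was not found. Of these 12, 4 were listed, with a summed level of 579 CPM in the high fat diet library and 710 CPM in the normal diet library. H19, Meg3 and Mir142hg were among those not listed. Of 9 names taken for hepatocyte lncRNAs, 6 are in the annotation as lncRNA genes and 4 of these were listed, with 703 and 851 CPM, so the labelled cell type could be checked only weakly. Their part in the ratios of the pair was not tested, and a lower level per cell and fewer cells of a type cannot be told apart in such libraries.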

How the data were processed

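RNA of 2 mouse liver libraries, 1 per diet, had been sequenced, and lncRNAs were quantified by the authors. HISAT2, HTSeq and DESeq are named, with the build mm8, per the submitters' processing notes; no version, role, annotation or strand mode is stated in the labels. Deposited values are CPM, scaled to the reads of each table, beside the authors' fold (ratio of the high fat to the normal diet value), its log2, and p-values, which were not used here. Division by the smallest value of a column gave whole reads for 100% of 1772 values, to within 1e-06. Numbers above 1 were even and were halved to read pairs, and values of 1 read were taken as 0 pairs.

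Ratios of CPM have exact binomial (Clopper-Pearson) intervals of the pair split (scipy 1.17.1). Their coverage was checked on simulated counts that held counting error alone, so the check says nothing about the spread between animals. The 614 identifiers were matched to GENCODE M21 (GRCm38), and 606 were found. The tables hold no coordinates, so positions are those of that release and not of mm8. Near-identical stretches were found with BLAST+ 2.17.0 among GENCODE transcripts. A fold against 0 pairs used a floor of 3 pairs. The lncRNAs named are the pair, the 3 nearest in log2 CPM, neighbours on the chromosome, those at genes of the 4 lists, and markers of cell types; Gpr137b-ps, the lncRNAs behind counts of 5 or fewer, 1190007I07Rik and other sequence matches were named after their values or matches were seen. The pair and the lists were chosen with earlier results of these data known. Alternatives of scaling, pseudocount, minimum and fold are given at the end. The table of 272 numbered lncRNAs has no names or positions and was used only for its number and the check of whole reads.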

Additional observations from a re-analysis of the deposited data

How the results depend on the processing

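The log2 ratio of 1810014B01Rik kept its direction in 6 alternatives of scaling and pseudocount, between 0.61 and 0.75 (1.52-fold to 1.69-fold). It was 0.607 with totals that leave out the 5 most abundant lncRNAs and 0.753 with totals of lncRNAs without exon overlap with coding genes. With totals that leave out the lncRNA itself, a setting chosen after the data were seen, it was 0.715. All 3 change the totals by construction, and all 3 values lay outside its counting interval of 0.614 to 0.701. The choice of totals is thus a source of error that this interval does not include. Gm26745 stayed within its counting interval in all 6, between -1.35 and -1.24. Of all known lncRNAs, 28 were higher and 30 lower. The numbers were 78 and 64 without a minimum of reads, 8 and 11 with 100 reads, 58 and 66 at 1.5-fold, and 6 and 9 at 4-fold, each of which changes by construction what can be called. At 1.5-fold 1810014B01Rik is called higher, with its whole interval (1.53 to 1.63) above that fold, and at 4-fold Gm26745 is not called. Median-ratio scaling moved log2 ratios by -0.01 and gave 27 higher and 34 lower. A pseudocount of 5 reads gave 27 higher and 22 lower. Testing each lncRNA by an exact binomial test at a Benjamini-Hochberg value under 0.05, which compares the libraries and not the diets, gave 39 and 42. No paired analysis was possible because a single library stands for each diet, and for the same reason none could be left out. The 50 pairs of Gm26745 in the high fat diet library limit its precision.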
